A study of Mus musculus with 4 samples.

Results

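The homeobox genes Barx1, Barx2, Six2, Six4, Isl1 and Pitx1 were followed across 4 organ primordia from embryos of the outbred ICR strain at embryonic day E11.5. The groups were stomach, esophagus, intestine and lung, with 1 array each and no allele or treatment in any of them. The 6 genes were found by matching each probe's accession to its RefSeq symbol, which gave 7 probes of 41174 on the array, 24375 of which carried a gene symbol (17016 genes). The stomach label is spelled "gustric", the extraction text of all 4 samples names only stomach, and nothing says how many embryos were pooled, so the organ was taken from the tissue label of each sample.

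Homeobox genes encode transcription factors that bind DNA through a homeodomain and set regional identity in the embryo. In the mouse, Barx1 is made in the mesenchyme of the developing stomach, where it induces secreted Wnt antagonists that let the overlying endoderm become stomach rather than intestine, and it is also needed for the spleen. Six2 and Six4 belong to the sine oculis family, whose proteins work with Eya cofactors. Isl1 is a LIM homeodomain factor of motor neurons, heart progenitors and the pyloric sphincter, and Pitx1 is a paired-like factor of the hindlimb and pituitary. Barx2 is a relative of Barx1 known from muscle precursors and from several epithelia.

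Barx1, Six2, Isl1 and Pitx1 were each highest in stomach, by 2.98-fold to 11.9-fold over the next organ. Six4 was not: it was 1.87-fold lower in stomach than in esophagus, and stomach and intestine could not be ordered. Neither Barx2 probe was well above background in any organ. The stomach was thus the highest organ for 4 of the 6 genes, which were picked with earlier results of these arrays known, and Barx2 could not be placed. Whole primordia were measured, so the arrays do not show whether a transcript came from mesenchyme or epithelium, and fewer cells of a type cannot be told apart from less RNA per cell.

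The start regions of the 3 stomach-high genes listed in the RefSeq promoter table are shown because these genes share their highest organ, with 250 bases before and 50 after the annotated start, read 5′ to 3′ on the gene's strand. Entries were found for 4 of the 6 genes (Barx1, Six2, Six4 and Isl1). All positions are on build GRCm38.p6. Barx1 lies at chr13:48662786-48663085 (plus strand), Six2 at chr17:85688205-85688504 (minus strand) and Isl1 at chr13:116309639-116309938 (minus strand). Capitals mark the homeodomain core TAAT and the CCAAT box on either strand (ATTA and ATTGG on the other), including overlapping matches.
Barx1: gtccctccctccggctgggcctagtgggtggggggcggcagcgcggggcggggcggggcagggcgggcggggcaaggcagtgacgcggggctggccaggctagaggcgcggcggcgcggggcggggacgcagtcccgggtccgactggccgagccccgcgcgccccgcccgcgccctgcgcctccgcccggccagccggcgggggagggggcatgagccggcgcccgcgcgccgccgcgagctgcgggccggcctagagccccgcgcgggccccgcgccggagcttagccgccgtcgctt
Six2: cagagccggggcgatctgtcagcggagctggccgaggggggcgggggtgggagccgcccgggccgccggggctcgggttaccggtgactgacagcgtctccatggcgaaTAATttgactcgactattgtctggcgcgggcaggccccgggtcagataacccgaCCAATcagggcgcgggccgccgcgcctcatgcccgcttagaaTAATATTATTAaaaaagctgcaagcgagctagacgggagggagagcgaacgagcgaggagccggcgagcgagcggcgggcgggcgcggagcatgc
Isl1: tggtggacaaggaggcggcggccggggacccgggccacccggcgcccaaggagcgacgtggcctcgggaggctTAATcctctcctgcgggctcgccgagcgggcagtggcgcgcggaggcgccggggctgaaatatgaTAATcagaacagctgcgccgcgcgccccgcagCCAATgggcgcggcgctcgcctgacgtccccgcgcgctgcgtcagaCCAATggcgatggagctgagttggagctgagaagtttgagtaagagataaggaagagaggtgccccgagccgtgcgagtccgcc
The 3 windows were unlike each other. The Six2 window held 4 matches to TAAT or ATTA, of which 3 lie in 1 run, and 1 CCAAT box. The Isl1 window held 2 TAAT matches and 2 CCAAT boxes, and the Barx1 window held neither motif. For comparison, 58.0% of 32851 RefSeq promoter windows of the same length hold TAAT or ATTA and 37.4% hold a CCAAT box. The GC content was 84.7% for Barx1, 67.3% for Six2 and 69.0% for Isl1, against a median of 52.7% over all windows. A match is only a run of letters and not evidence of binding.

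Levels are log2 signal relative to the 75th percentile of the same array, so that 0 marks a probe as bright as that percentile. No organ was measured more than once, and with 1 array a group there is no test and no p-value: differences are sizes, and the number of arrays limits their precision. Errors of 2 kinds can be set beside them. The scanner software estimated an error of at most 14.6% of the signal wherever a member was well above background. The log2 ratio of a pair of organs differed between the brightest and the second probe of a gene with an SD of 0.51 for stomach over esophagus (4615 genes), 0.75 for stomach over intestine (4691 genes) and 1.10 for stomach over lung (2493 genes), called here the between-probe SD.

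The lung array was dim: 39.0% of its 43379 spots were well above background, against 67.9% to 74.0% on the other arrays. The lowest level of any probe well above background, called here the limit of the array, was -2.39 in lung, -5.78 in stomach, -5.75 in esophagus and -6.92 in intestine. A member that was not well above background entered a fold at the higher of its own level and that limit, and such a fold is written "at least". A probe above the limit can still be not well above background, as Six4 was in lung at -2.24, so these bounds are approximate. The markers Nkx2-1 for lung and Cdx2 for intestine were highest on the array of their organ, at 2.47 and 1.90. The esophagus array carried lung markers too: Nkx2-1 stood at -1.10 and Sftpc, a surfactant gene, at -1.75 there, and stomach was at least 25.5-fold and at least 16.3-fold lower than esophagus. Sox2, a foregut factor, stood at 0.63 in stomach, 1.09 in esophagus, -2.56 in intestine and -1.77 in lung.

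Barx1 had the widest range. Its level was 4.49 in stomach, 0.92 in esophagus, -4.35 in intestine and -4.11 in lung, where it was not well above background. As scanned, before scaling, the signal was 7212 in stomach, 717 in esophagus, 48.7 in intestine and 1.85 in lung. The order was stomach, then esophagus, then intestine, and lung could not be placed against intestine because Barx1 was not well above background in lung. Barx1 stood, in stomach, 11.9-fold above esophagus, 459-fold above intestine and at least 118-fold above lung. The fold over intestine ranked 1 of 13267 genes well above background on both arrays, and the fold over esophagus ranked 15 of 12917. These 3 differences were 7.04, 11.7 and 6.23 times the between-probe SD of their pair. Normexp background correction with an offset of 50 lowered the log2 difference over intestine to 7.36, against 8.84 as reported, and the bound over lung to 4.65, against 6.89. Between the other organs, Barx1 was 38.5-fold higher in esophagus than in intestine and at least 9.92-fold higher in esophagus than in lung. It had 1 probe and 1 spot per array, so no second probe checks these values.

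**Figure D1:**
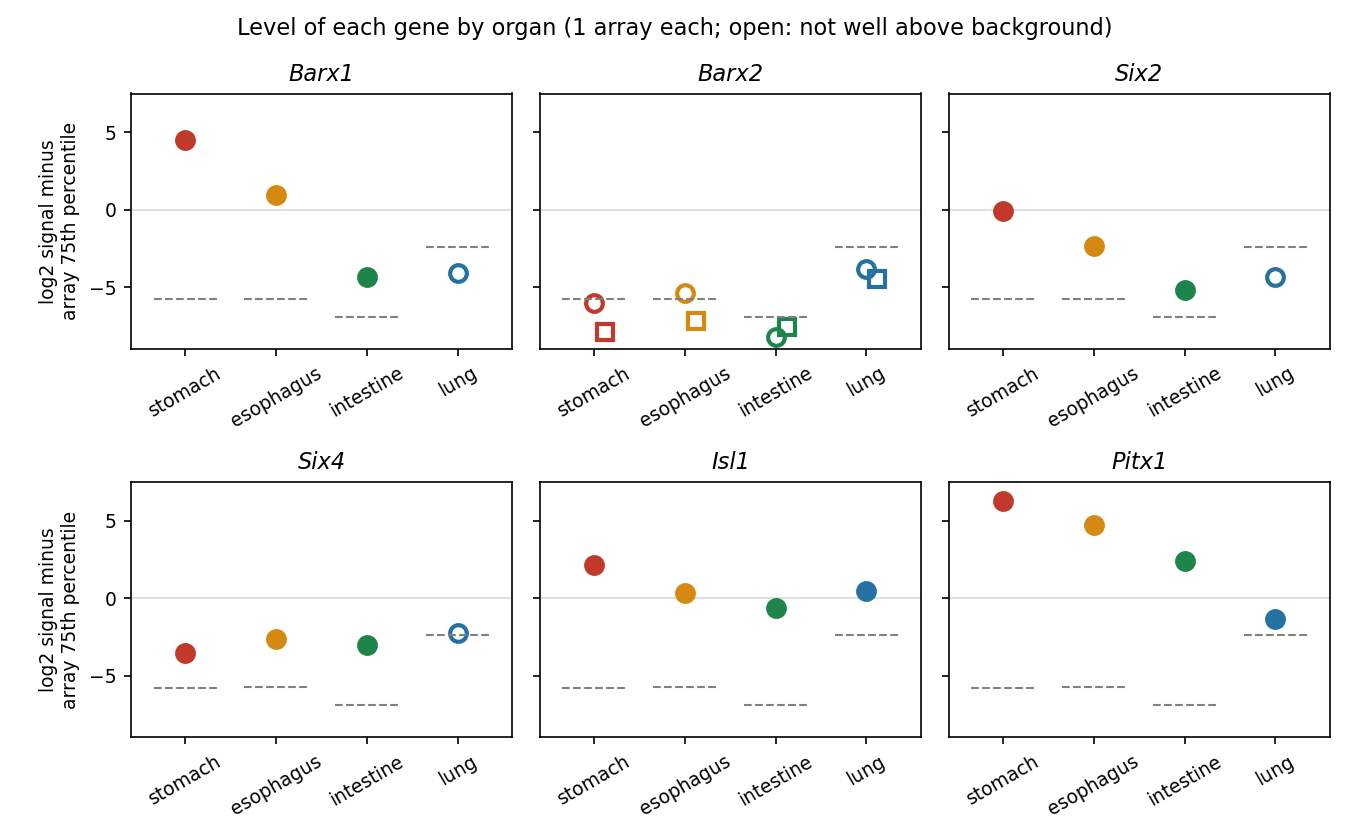
Levels of the 6 genes in stomach, esophagus, intestine and lung (log2 signal minus the 75th percentile of the array, 1 array each). Filled points are well above background, open points are not, and squares are the second Barx2 probe. Dashed lines mark the lowest level of any probe well above background on each array. Barx1, Six2, Isl1 and Pitx1 are highest in stomach, Six4 is not, and every Barx2 point is open.

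Six2 followed the same order at lower levels. It stood at -0.07 in stomach, -2.36 in esophagus and -5.21 in intestine, and at -4.36 in lung, again not well above background. Six2 stood, in stomach, 4.88-fold above esophagus, 35.3-fold above intestine and at least 4.99-fold above lung. Only 2 of 13267 genes had a larger fold of stomach over intestine, and the fold over esophagus ranked 55 of 12917. In esophagus Six2 was 7.23-fold higher than in intestine and lay at the lung limit (at least 1.02-fold). Under normexp the log2 difference over esophagus was 1.74, against 2.29 as reported, and that over intestine 3.51, against 5.14. Over lung it was 0.64, below 2-fold, against 2.32.

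Pitx1 was ordered stomach, esophagus, intestine and lung. Its level was 6.29 in stomach, 4.71 in esophagus, 2.40 in intestine and -1.33 in lung, well above background in all 4. As scanned, the signal was 25029 in stomach, 9942 in esophagus, 5226 in intestine and 12.7 in lung. Pitx1 stood, in stomach, 2.98-fold above esophagus, 14.8-fold above intestine and 196-fold above lung. Among genes measured on both arrays, Pitx1 had the largest fold over lung both for stomach (rank 1 of 9507) and for esophagus (65.9-fold, rank 1 of 9515). In intestine it was still 13.3-fold higher than in lung (rank 7 of 9506). Under normexp the log2 difference of stomach over lung was 6.47, against 7.62 as reported. The step between stomach and esophagus was 3.10 times the between-probe SD, and the step between stomach and intestine 5.17 times. Six2 and Pitx1 were each read from 1 probe with 1 spot per array, so no second probe checks these values. The ribosomal RNA Rn28s1 was also far lower on the lung array, at 2.78 against 8.05 in stomach. The part of the dim lung array in the Pitx1 folds over lung was not tested.

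Isl1 had the best measured level, because its probe was printed in 10 copies on each array. Isl1 averaged 2.13 ± 0.04 in stomach (SD over 10 spots), 0.36 ± 0.07 in esophagus (9 spots, with an outlier spot left out), -0.65 ± 0.03 in intestine (10 spots) and 0.48 ± 0.11 in lung (10 spots). All stomach spots, from 2.06 to 2.18, lay above all spots of the other arrays, the highest of which was 0.69 in lung. Spots from 0.28 to 0.48 in esophagus overlapped those from 0.32 to 0.69 in lung, and intestine spots, from -0.72 to -0.62, lay below both. These SDs cover copies of 1 probe on 1 array and leave out differences of dissection, RNA and labelling.

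**Figure D2:**
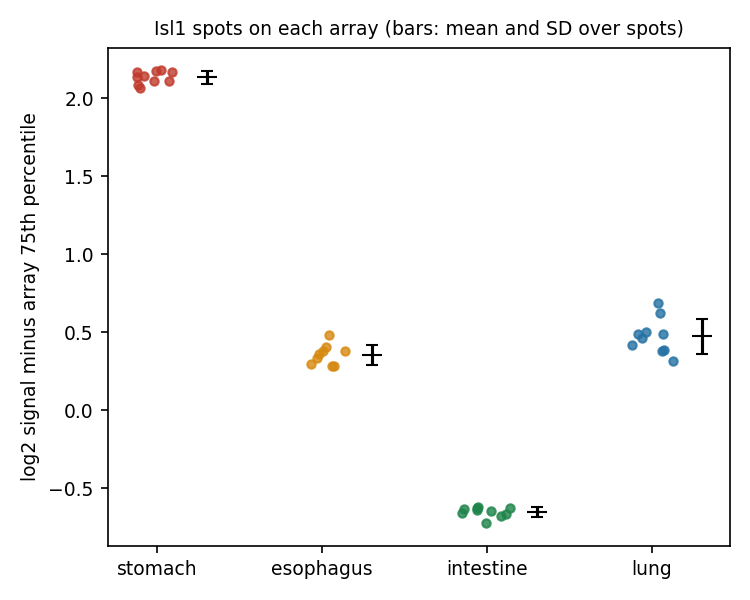
Isl1 level of every spot that was not an outlier on the stomach, esophagus, intestine and lung arrays (log2 signal minus the 75th percentile of the array), with the mean and SD over spots beside them. Stomach spots sit between 2.06 and 2.18, and the esophagus and lung spots overlap.

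Isl1 stood, in stomach, 3.43-fold above esophagus, 6.89-fold above intestine and 3.15-fold above lung. The difference was 3.50 times the between-probe SD against esophagus and 3.70 times against intestine, but 1.50 times against lung. Esophagus and lung differed by -0.12 (esophagus minus lung), 0.102 times their between-probe SD, and the order of these neighbours is not resolved. Esophagus over intestine, at 2.01-fold, was also within 1 between-probe SD (0.970 times).

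Six4 stood at -3.52 in stomach, -2.62 in esophagus and -3.00 in intestine. In lung its level of -2.24 was not well above background and gives no order. Six4 was 1.87-fold lower in stomach than in esophagus and 1.43-fold lower than in intestine, 1.78 and 0.684 times the between-probe SD. Neither difference reached 2-fold. Under normexp the log2 difference over esophagus shrank to -0.21, against -0.90 as reported. The difference over intestine changed sign under normexp, where the log2 difference was 0.39. Stomach and intestine are therefore not ordered for this gene.

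Barx2 was read by 2 probes, neither of which was well above background on any array. The brighter probe stood at -6.00 in stomach, -5.39 in esophagus, -8.23 in intestine and -3.84 in lung. The other stood at -7.90 in stomach, -7.20 in esophagus, -7.56 in intestine and -4.51 in lung. The probes ordered stomach and intestine differently, and no fold is given. Its transcript was not detectable at the sensitivity of these arrays, which does not show that it was absent.

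Read as a group, 4 of the 5 members that could be compared were at least 2-fold higher in stomach than in esophagus, a size that 4.27% of 13732 genes reached. Against intestine the count was 4 of 5, with 7.52% of 13807 genes. Against lung it was 4 of 4, with 9.87% of 10503 genes, though 2 of these 4, Barx1 and Six2, rest on a bound. A gene not well above background in lung was compared only where its stomach level was not below the lung level used. Barx1 and Six2 could therefore not have counted as lower than lung, and Six4 was left out by the same rule. At least 4-fold higher in stomach were 2 members against esophagus (0.692% of genes), 4 against intestine (1.31%) and 3 against lung (1.94%). No member was 2-fold lower in stomach than in esophagus (5.63% of genes), intestine (4.87%) or lung (14.0%). The median log2 difference of the members was 1.78 over esophagus, 3.89 over intestine and at least 4.60 over lung, where the bounds of Barx1 and Six2 are its middle values, and that of all genes was 0.16, 0.04 and -0.12. Since the members were picked with earlier results of these arrays known, these shares describe them and support nothing further.

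**Figure D3:**
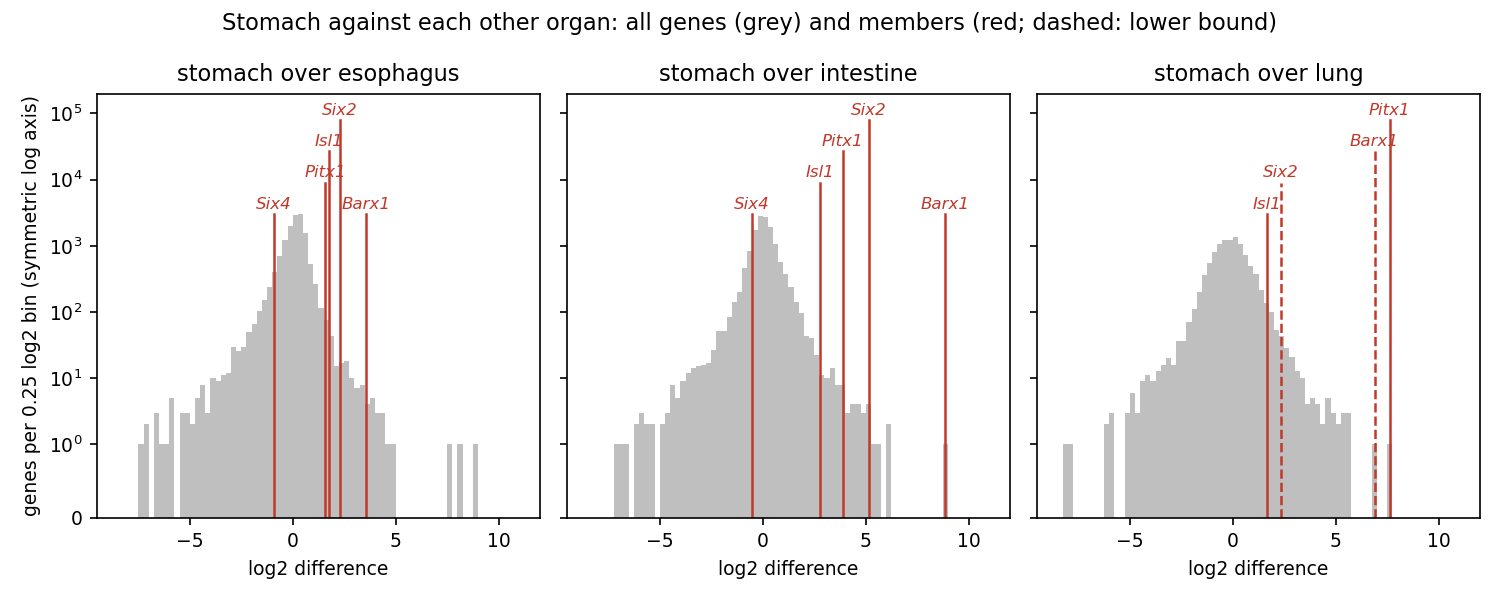
Log2 difference of stomach minus esophagus, intestine and lung for all comparable genes (grey, genes per bin of 0.25 on a symmetric log axis) and for the members (red lines, dashed where the value is a lower bound). Barx1 over intestine, at 8.84, and Pitx1 over lung, at 7.62, lie at the right end, and Six4 lies left of 0 in both panels that show it.

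At least 2-fold above every other organ in stomach were 4 members, as were 54 of 14506 genes (0.372%), and 2 members, Barx1 and Six2, were at least 4-fold above (0.0620%). Within those 54 genes ordered by their margin over the next organ, Barx1 came second with 11.9-fold, Six2 stood at rank 7 with 4.88-fold, Isl1 at rank 14 with 3.15-fold and Pitx1 at rank 15 with 2.98-fold. Outside stomach, esophagus was at least 2-fold above intestine for 4 of 5 members (11.9% of genes), and above lung for 2 of 4 (9.42%), Barx1 and Pitx1. No member was 2-fold lower in esophagus than in intestine (8.71%) or lung (16.2%), but against lung Barx1 and Six2 again could not have counted as lower. Intestine against lung could be read for 2 members, of which Pitx1 was higher in intestine (8.39% of genes) and Isl1 2.19-fold lower (12.2% of genes).

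Genes with the most similar course over the 4 organs were sought by the root mean square difference of profiles after each gene's own mean was taken off. For Six4 these were Alpk3 (0.06), Tceal3 (0.06) and the odd-skipped factor Osr2 (0.06), all with shallow profiles. For Isl1 they were the orphan nuclear receptor Nr2f1 (0.29), the cytokine signalling inhibitor Socs1 (0.30) and the potassium channel subunit Kcns3 (0.32). Six2 lay nearest to Kctd8 (0.34) and the heparan sulfate sulfotransferase Hs3st3a1 (0.53), then Prap1 (0.77). Barx1 had no close match: the nearest were Hs3st3b1 (1.39), Prap1 (1.65) and Lor, which encodes loricrin (1.68). For Pitx1 they were the ribosomal RNA Rn28s1 (0.97), the mitochondrial leucyl-tRNA synthetase Lars2 (0.98) and the RNA component Rmrp (1.06). Rn28s1 stood at 8.05 in stomach, 8.42 in esophagus, 6.51 in intestine and 2.78 in lung, so it shares the low lung level of Pitx1 but not a stomach maximum. Likeness rests on 4 arrays, and for Barx1, Six2 and Six4 the lung value was a limit or not well above background. Hs3st3b1, Prap1, Kctd8, Hs3st3a1, Alpk3 and Osr2 also entered at the lung limit. Their likeness to these members in lung was therefore not measured.

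Other regulators of stomach mesenchyme and the pylorus were taken from a list of 17 genes, 15 of which had a probe. Counts of this and the following lists are at least 2-fold, a size that, over all genes, 4.27% reached higher and 5.63% lower in stomach against esophagus, 7.52% and 4.87% against intestine, and 9.87% and 14.0% against lung. A listed gene not well above background in lung was compared with lung only where its stomach level was not below the lung level used. Such a gene could not count as lower. Of the 15 genes, 4 were at least 2-fold higher and 1 lower in stomach than in esophagus (median log2 difference 0.14), 6 higher and 2 lower than in intestine (0.96), and 4 higher and 3 lower of 14 compared with lung (0.65). Nkx2-5, a factor of the heart and of the pylorus, exceeded its esophagus level in stomach by 2.20-fold, its intestine level by 15.6-fold and its lung level by at least 10.9-fold. Tlx1, needed for the spleen, was well above background in stomach alone, at -1.71, at least 16.5-fold above esophagus and at least 37.1-fold above intestine but only at least 1.60-fold above the lung limit. Nr2f1 in stomach was 2.53-fold higher than in esophagus, 3.87-fold higher than in intestine and 2.29-fold higher than in lung. Foxf1, a forkhead factor of gut mesenchyme, was within 2-fold of esophagus and intestine (1.32-fold and 1.95-fold higher) and 5.59-fold higher than in lung.

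Secreted Wnt antagonists, the class that Barx1 induces in mouse stomach, showed 0 of 8 compared genes 2-fold higher and 3 lower in stomach than in esophagus, where 4.27% of all genes were higher, so the 0 says nothing about the class. Sfrp2 stood at 1.85 in stomach, 3.90 in esophagus, 0.79 in intestine and 3.81 in lung, 4.12-fold lower in stomach than in esophagus and 2.08-fold higher than in intestine. Against intestine 1 of 8 was higher and 2 lower, among them Dkk2, 8.71-fold lower in stomach. Against lung 1 of 4 was higher and 1 lower. Frzb was 2.97-fold lower in stomach than in esophagus, and Sfrp5 was 1.56-fold higher than in esophagus and 2.65-fold lower than in intestine. Sfrp1, the brightest of the list in stomach, stood at 4.76 there, 4.62 in esophagus, 5.25 in intestine and 3.12 in lung.

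Among other genes of the sine oculis, Eya and Dach families, 1 of 8 genes compared was 2-fold higher and 3 lower in stomach than in esophagus, 4 higher and 0 lower than in intestine, and 1 higher and 1 lower of 5 than in lung. Skeletal myogenic markers were listed because sine oculis genes act in muscle precursors: 6 of 7 compared were lower in stomach than in esophagus, Myog by 36.0-fold, and their summed signal, in units of the array's 75th percentile, was 1.43 in stomach, 20.9 in esophagus, 3.80 in intestine and 1.62 in lung. Most of these sums came from 1 gene, Actc1, at -0.19 in stomach, 4.20 in esophagus, 1.58 in intestine and -0.12 in lung. The part of skeletal myogenic cells in the Six4 values was not tested. Dach2, a nuclear cofactor of this network, stood, in stomach, 2.55-fold above esophagus, 3.02-fold above intestine and 2.16-fold above lung. Dach1 was 1.73-fold and 2.90-fold higher than in esophagus and intestine and 1.14-fold higher than in lung, while Eya3 was within 2-fold of esophagus and intestine and lower in stomach, at 0.02, than in lung, at 1.03. Nephric markers, listed because Six2 marks nephron progenitors, were split, with 1 higher and 1 lower of 8 against esophagus, 1 and 1 of 9 against intestine and 1 and 0 of 6 against lung. Their summed signal was 13.5 in stomach, 23.3 in esophagus, 4.95 in intestine and 5.78 in lung. Osr1, a factor of intermediate mesoderm and foregut mesenchyme, made up most of the sums in stomach and esophagus. It was 2.06-fold lower in stomach than in esophagus and 11.0-fold higher than in intestine.

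**Figure D4:**
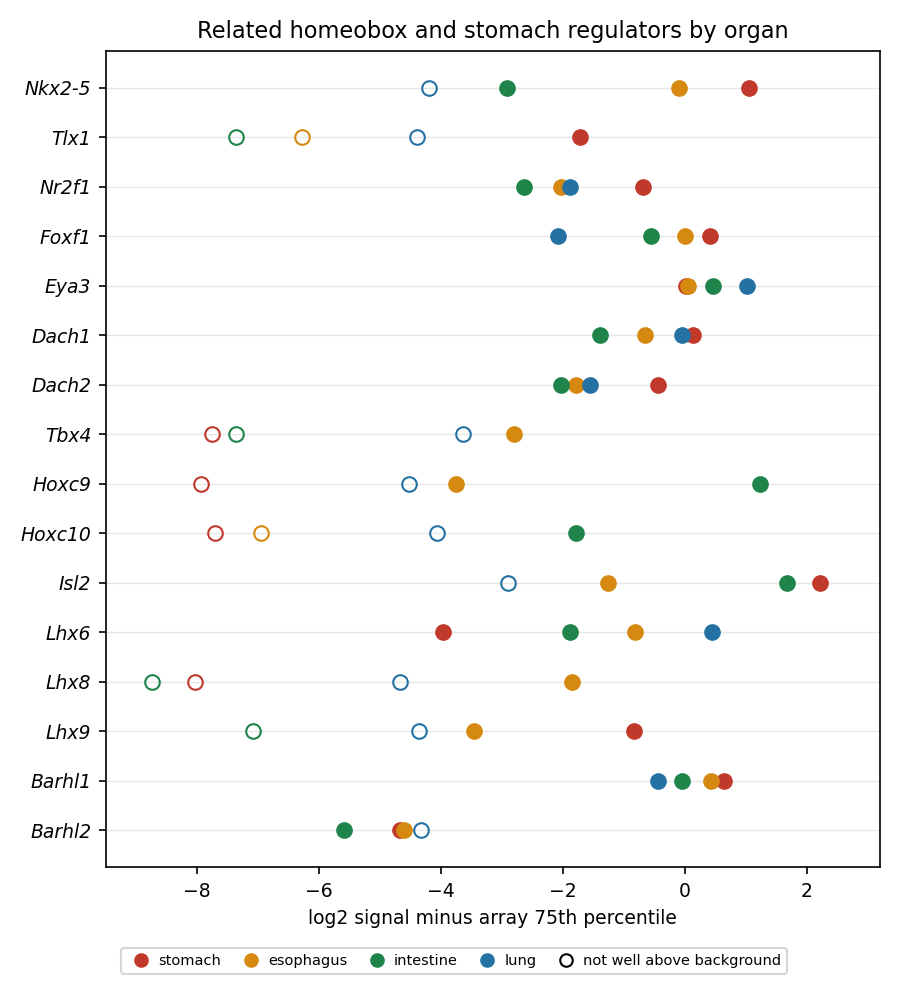
Levels of related homeobox genes and stomach regulators chosen by the size of their stomach difference (log2 signal minus the 75th percentile of the array, 1 array per organ), with open points not well above background. Tlx1 is well above background in stomach alone, while Lhx8 is highest in esophagus and Hoxc9 in intestine.

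The hindlimb genes that accompany Pitx1 in the limb were not well above background in stomach: Tbx4 was at least 7.88-fold lower in stomach than in esophagus, Hoxc9 at least 129-fold lower and Hoxc10 at least 15.8-fold lower in stomach than in intestine. Limb mesenchyme markers had a summed signal of 5.14 in stomach, 32.6 in esophagus, 1.92 in intestine and 22.4 in lung. Of 11 compared with esophagus 2 were higher and 6 lower in stomach, of 9 with intestine 6 and 1, and of 7 with lung 2 and 4. Most of the esophagus and lung sums came from Prrx1, Prrx2 and Tbx5. In esophagus these stood at 3.99, 3.25 and 2.46, and in lung at 1.175, 3.13 and 3.48.

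The LIM homeobox relatives and cofactors of Isl1 were mixed: 3 of 15 were 2-fold higher and 3 lower in stomach than in esophagus, 5 higher and 2 lower of 14 than in intestine, and 5 higher and 2 lower of 10 than in lung. Isl2, which like Isl1 is made in motor neurons, stood at 2.22 in stomach and 1.68 in intestine, and at -1.26 in esophagus. It stood, in stomach, 11.2-fold above esophagus, 1.46-fold above intestine and at least 24.5-fold above lung, where Isl2 was not well above background.

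Of 11 enteric neural crest and neuron markers compared, 8 were higher and 1 lower in stomach than in esophagus (4.27% and 5.63% of all genes), 3 higher and 0 lower than in intestine (7.52% and 4.87%), and 9 higher and 0 lower of 10 than in lung (9.87% and 14.0%), with a summed signal of 27.2 in stomach, 23.2 in esophagus, 21.1 in intestine and 4.95 in lung. Tubb3, a neuronal tubulin, was 2.95-fold, 1.19-fold and 7.96-fold higher than in esophagus, intestine and lung. Their part in the Isl1 difference was not tested.

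Pancreas markers, listed because islet cells also make Isl1, summed to 6.51 in stomach, 9.60 in esophagus, 4.25 in intestine and 2.29 in lung. Among them 1 was higher and 1 lower of 8 against esophagus, 3 and 2 of 9 against intestine, and 2 and 0 of 5 against lung. Ptf1a, which defines exocrine pancreas, was not well above background in stomach, esophagus or lung and stood at -3.69 in intestine, where stomach was at least 4.25-fold lower. Cpa1, a digestive enzyme gene, stood at -2.85 in stomach and 1.24 in intestine, a log2 difference of -4.09. Mnx1 went the other way, at -0.63 in stomach and -3.91 in intestine, 9.73-fold higher in stomach, and was 1.21-fold higher than in esophagus. Gcg, named by the same rule, was also highest in stomach, at 1.40. It stood there 1.10-fold above esophagus, 3.12-fold above intestine and 5.04-fold above lung. Most of the esophagus sum came from Nkx6-1, at 2.58 in esophagus and 1.13 in stomach.

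Heart muscle markers had their highest summed signal on the esophagus array. All 11 were well above background there, and 10 of 11 compared were lower in stomach, Mybpc3 by 143-fold and Tnnt2 by 55.1-fold. Their summed signal was 2.86 in stomach, 116 in esophagus, 1.29 in intestine and 8.29 in lung. Second heart field markers, listed for Isl1, summed to 8.58 in stomach, 18.0 in esophagus, 5.45 in intestine and 8.60 in lung, with 3 of 8 higher and 2 lower in stomach than in esophagus, 4 and 0 of 8 against intestine, and 2 and 2 of 6 against lung. Tbx1, a pharyngeal and second heart field factor, was 23.1-fold lower in stomach than in esophagus. Named by the same rule, Fgf10 was 3.01-fold, Hand2 3.52-fold and Nkx2-5 2.20-fold higher in stomach than in esophagus. The part of heart cells in the Isl1 values was not tested.

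Of 12 mesenchyme markers, 0 were 2-fold higher and 6 lower in stomach than in esophagus, 1 and 3 against intestine, and 3 and 2 against lung, and their summed signal was 242 in stomach, 387 in esophagus, 209 in intestine and 285 in lung. Of 12 epithelium markers, 3 were higher and 0 lower in stomach than in esophagus and than in intestine, and 3 and 1 of 11 against lung, with sums of 112 in stomach, 47.2 in esophagus, 59.4 in intestine and 61.1 in lung, carried mainly by the simple-epithelium keratins Krt8 and Krt18, at 4.94 and 5.93 in stomach, against 3.39 and 4.22 in esophagus. The other epithelium markers, apart from the keratin Krt19, were within 2-fold between stomach and esophagus. Among mesenchyme markers only Pdgfra, at 4.16, and Foxf1, at 0.41, were highest in stomach, by 1.30-fold and 1.32-fold over esophagus. Pdgfrb, Twist2 and Postn, named by the rule, were lower in stomach than in every other organ. Pdgfrb was 4.52-fold lower than in lung, Twist2 2.96-fold lower than in esophagus and Postn 5.68-fold lower than in intestine. The part of these cells in the differences of Barx1, Six2, Isl1 and Pitx1 was not tested.

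**Figure D5:**
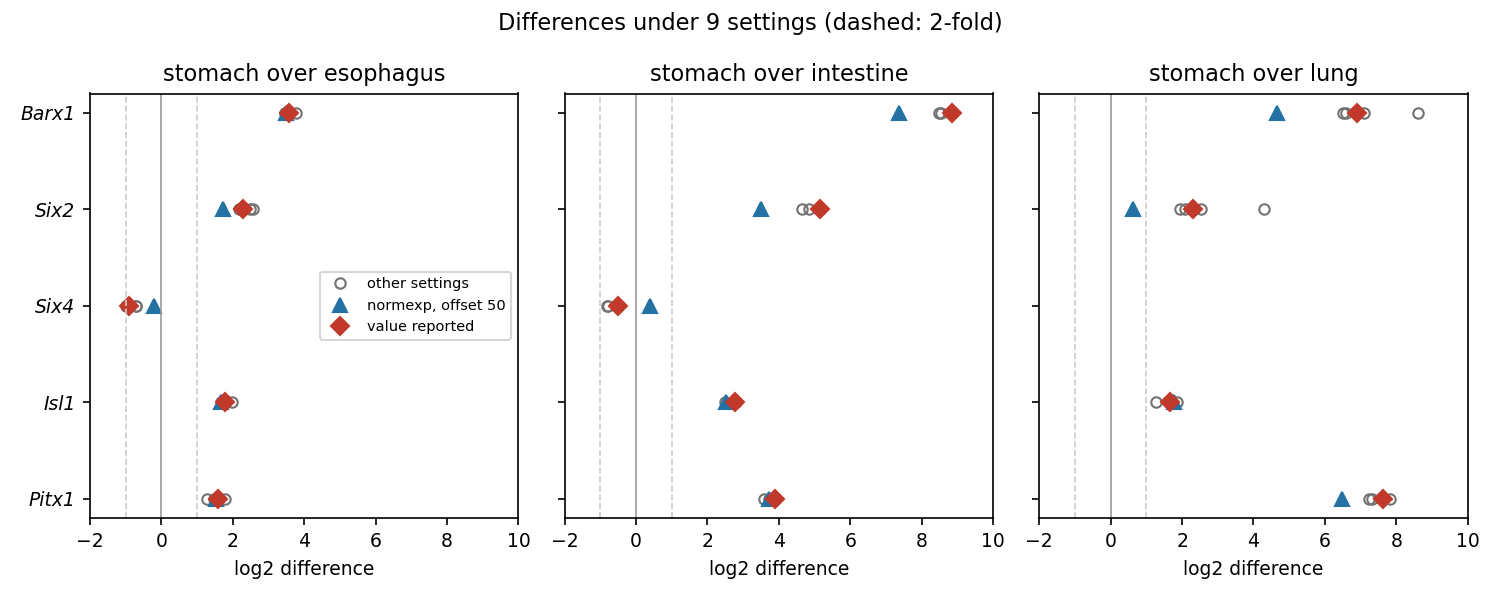
Log2 difference of stomach minus esophagus, intestine and lung for the 5 measurable genes under 9 settings: the reported value (red diamonds), normexp with an offset of 50 (blue triangles) and the other settings (open circles), with dashed lines at 2-fold. Six2 over lung under normexp lies inside 2-fold at 0.64, and Six4 over intestine crosses 0.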

How the data were processed

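RNA of 4 whole organ primordia, 1 Cy3-labelled array each on 1 slide and 1 scan, was measured. Agilent Feature Extraction 10.5.1.1 turned the scans into spot values, per the file headers (protocol GE1_105_Dec08, array design 014868, build mm8). The deposited signals are linear intensity values, background-subtracted and detrended within an array with no scaling across arrays. Log2 values make up the deposited series table. Against the scanner values it correlated at 0.99996 to 0.99999 by array, with medians of -3.16 in stomach, -2.96 in esophagus, -3.46 in intestine and -3.55 in lung. Its centring and scale were not stated beyond this match.

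Flagged spots were left out (69 probes lost), copies averaged and the 75th percentile of non-control probes taken off within each array. No spot was saturated. The brightest probe stood for each gene, whose name came from RefSeq (GRCm38.p6), used for names and start regions only. No test was possible with 1 array per organ. The members and the 16 lists were chosen with earlier results of these data known. Named were all members, up to 4 genes per list of largest difference between stomach and the mean of the others, Nkx2-1, Sox2 and Cdx2, and the 3 most similar genes per member, leaving out clone names. Pdgfra, Nkx6-1, Sfrp1, Prrx1, Prrx2 and Tbx5 were named after their values were seen. Normexp used median spot signals, since the files hold no mean signal, in place of the planned column. Python 3.11.15 (numpy 2.4.6, pandas 2.3.3) and R 4.3.3 (limma 3.58.1) were used, and the counting and similarity steps were tested on simulated data. Some listed genes are not reported here.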

Additional observations from a re-analysis of the deposited data

How the results depend on the processing

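Of 112 member differences recomputed under 8 other settings, 102 moved by less than the between-probe SD of their pair, 9 moved by more and 1 reversed. Part of the 102 was fixed in advance. Each of these members had 1 probe, so the mean of all probes could not move its values. Dropping the floor could move only the folds that were bounds. The deposited values were nearly those of the scanner. Normexp, whose offset of 50 is above the 75th percentile of the lung signals (32.0), gave 1.74 for Six2 over esophagus and -0.21 for Six4 over esophagus. Over intestine it gave 7.36 for Barx1, 3.51 for Six2 and the reversed 0.39 for Six4, and over lung 4.65 for Barx1, 6.47 for Pitx1 and 0.64 for Six2. Without a floor for dim probes, the values over lung were 8.61 for Barx1 and 4.29 for Six2, whose lung level was then read below the limit. At 4-fold in place of 2-fold, 2 members were above every other organ in stomach and 2 were higher in stomach than in esophagus. With only genes well above background on both arrays, an alternative chosen after seeing the data, 2 members in place of 4 could be called higher in stomach than in lung. Counts of lower members were 1 against esophagus (Six4) with the percentile taken over probes bright on all arrays, and 2 against lung (Six4 and Barx2, both below background in lung) without a floor. The number of members above every other organ was 3 under normexp. It was 4 without the esophagus, intestine or lung array, but leaving out an array could not have lowered it. The margin is taken over the highest of the other organs. Median centring moved the median of all genes by 0.20 over esophagus, -0.30 over intestine and -0.41 over lung, the bright-probe percentile by 0.21, normexp by 0.42, the mean of all probes by 0.11 and no floor by -0.29 over lung. No paired analysis was possible because each organ has 1 array and the result comes from no test. The dim lung array limits every value of Barx1, Six2 and Six4 against lung.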

Other observations

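Homeobox relatives outside the 6 genes had their highest level in other organs as well as in stomach. Lhx9, a LIM homeobox gene of limb and gonad, stood at -0.84 in stomach and -3.46 in esophagus and was not well above background in intestine or lung, which put stomach 6.15-fold above esophagus, at least 67.9-fold above intestine and at least 2.94-fold above lung. Lhx6, a LIM homeobox gene of the first branchial arch, ran the other way: it was 8.91-fold lower in stomach than in esophagus, 4.26-fold lower than in intestine and 21.4-fold lower than in lung. Lhx8 was well above background in esophagus alone, at -1.85, and at least 15.2-fold lower in stomach. The Bar-class relatives Barhl1 and Barhl2 were within 2-fold of esophagus and intestine, Barhl1 at 0.65 in stomach, 0.44 in esophagus, -0.04 in intestine and -0.44 in lung, and 1 of 1 compared was higher in stomach than in lung. The third gene of that list was not well above background on any array. Nkx6-2, another homeobox gene, was 21.4-fold higher in stomach than in intestine, its next organ, and Sftpc, a surfactant gene, was at least 241-fold lower in stomach than in lung.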
